A study of Mus musculus with 12 samples.

Results

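The measurement described here is the difference between the genotypes in the effect of all-trans retinoic acid (ATRA) on gene expression in mouse embryonic stem cells. For each gene the difference was taken as (TKO with ATRA minus TKO vehicle) minus (WT with ATRA minus WT vehicle) on log2(FPKM + 1), with each vehicle library paired to the ATRA library of the same column letter (D, F or G) within its genotype. A negative difference means that the ATRA effect was lower in TKO than in WT, and a positive difference that it was higher. Once exact repeats were removed the deposited table held 23668 genes. The test covered the 12362 of them that reached 1 FPKM in 3 libraries or more, and left out 11306.

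All 12 libraries of the study entered. WT cells, labelled wild type, and TKO cells, labelled RARalpha-/-, RARbeta-/-, RARgamma-/-, share the strain label SV129, and both grew on gelatinized plates with leukemia inhibitory factor (LIF) in the medium. Each genotype received ethanol vehicle or ATRA at 1 uM for 24 h, with 3 libraries in each of the 4 groups. The labels do not say which part of each receptor gene was removed, whether the TKO line is 1 clone, or whether replicate libraries stem from separate cultures. The p-values therefore cover the spread among these libraries, which may be technical. FPKM is a read level scaled to transcript length and library size, and the read depth behind it is unknown.

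Retinoic acid is made from vitamin A and binds the nuclear receptors RARalpha, RARbeta and RARgamma, which sit on DNA as dimers with the retinoid X receptors. Without ligand these dimers hold corepressors at their target genes, and with ligand they release them and recruit coactivators. In embryonic stem cells retinoic acid is known for inducing its own degrading enzymes and the Hox genes and for driving exit from the pluripotent state.

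Known response elements for these dimers are direct repeats of a hexamer, AGGTCA with G also allowed at the first base and T at the third, spaced by 5 bases (DR5), 2 bases (DR2) or 1 base (DR1). Both strands of RefSeq promoter windows on GRCm38.p6 were searched, each from 250 bases before to 50 bases after a gene's start. A DR5 match lay in 31 of 27025 genes with a window (0.115%), in 4 of 9167 tested genes (0.0436%), and in 2 of the 173 tested genes with a window whose ATRA effect was lower in TKO by at least 1 log2 unit. These 2 genes were Cyp26a1 and Rarb, and their windows are shown because both belong to the known direct targets and carry large differences of effect. The window of Cyp26a1 is chr19:37697558-37697857 on the plus strand. That of Rarb is chr14:16575427-16575726 on the minus strand. Both are written 5′ to 3′ on the gene's own strand, and capitals mark the DR5 match.
Cyp26a1: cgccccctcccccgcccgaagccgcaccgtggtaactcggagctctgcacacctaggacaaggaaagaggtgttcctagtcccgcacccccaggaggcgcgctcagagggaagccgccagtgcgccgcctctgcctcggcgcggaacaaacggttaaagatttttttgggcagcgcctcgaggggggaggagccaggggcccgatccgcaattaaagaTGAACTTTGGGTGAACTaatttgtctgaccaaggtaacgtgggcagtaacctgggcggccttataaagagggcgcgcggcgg
Rarb: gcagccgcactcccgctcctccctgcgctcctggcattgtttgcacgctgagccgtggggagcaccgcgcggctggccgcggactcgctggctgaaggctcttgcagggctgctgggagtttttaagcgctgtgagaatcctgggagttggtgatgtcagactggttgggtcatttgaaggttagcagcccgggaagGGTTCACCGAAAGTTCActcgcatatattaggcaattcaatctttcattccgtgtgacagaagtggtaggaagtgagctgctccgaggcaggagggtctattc
The Cyp26a1 match is on the opposite strand, at −32 to −16 from the start, and reads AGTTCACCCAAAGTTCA there. The Rarb match reads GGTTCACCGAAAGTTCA and spans −53 to −37. A DR2 match lay in 84 of all genes with a window (0.311%), in 9 of the tested genes (0.0982%) and in 1 of the 173, Tinagl1. A DR1 match lay in 71 of all genes with a window (0.263%), in 29 of the tested genes (0.316%) and in 0 of the 173. A match is a run of letters and no evidence of binding, and these windows leave out distal elements.

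The ATRA effect differed between the genotypes for 4820 of 12362 genes, or 39% (limma on the paired libraries, Benjamini-Hochberg adjusted p under 0.05). It was lower in TKO for 3060 genes (24.8% of those tested) and higher for 1760 (14.2%). Among the genes with a lower effect were the retinoic acid degrading enzyme gene Cyp26a1 and nearly all Hox genes tested, and among those with a higher effect were the threonine dehydrogenase gene Tdh and most pluripotency genes. Lower and higher describe the difference alone: the 3060 genes had a median ATRA effect of 0.42 in WT and −0.01 in TKO, and the 1760 had −0.38 in WT and 0.01 in TKO. The effect was farther from 0 in WT for 4782 of the 4820 genes and in TKO for 38. In the same fit the ATRA effect within WT passed the threshold for 55.7% of all genes tested and for 4750 of the 4820. The effect within TKO passed for 0 of all genes (0%) in limma, with 354 at an unadjusted p under 0.05, 161 of them among the 4820, and for 0 in the fit without the letter, with 12 at an unadjusted p under 0.05. Both fits use a spread per gene shared by the genotypes, and the spread between pairs was larger in WT for 68.5% of genes. The test within TKO is thus cautious, and its count of 0 does not show that no gene responded. Akr1b3, described below, did not pass although its TKO groups do not overlap.

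Most of the called differences were small. Of the 4820, 2991 (62.1%) were under 0.5 log2 units, and the median size was 0.42. Differences of at least 1 log2 unit were called for 407 genes, 266 lower and 141 higher, and of at least 2 units for 39 lower and 12 higher. The TKO effect of 389 of the 407 lay within 0.2 of 0, and for 375 its 95% interval lay within 0.5 of 0. On the log2(FPKM + 1) scale a gene near 0 FPKM can lie within such a limit with a large fold change. Of the 7542 genes not called, 6670 had a 95% interval of the difference within 0.5 of 0, while 21 had an estimate of at least 1 log2 unit in size. Without adjustment 5962 genes had p under 0.05.

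The 3 WT paired differences lay wholly above the 3 TKO paired differences for 4063 genes (32.9% of those tested) and wholly below for 2435 (19.7%). Of the 4820 called genes 4761 were without overlap. The pairing decides how many small differences are called. Without the letter in the fit the median standard error was 0.195 in place of 0.0891, and 671 genes passed, 489 with a lower effect in TKO (3.96%) and 182 with a higher one (1.47%). All 671 were among the 4820, and 305 of the 407 differences of at least 1 log2 unit passed in both fits. The split between lower and higher calls depended on scaling. The share of calls with a higher effect was 36.5% with FPKM as deposited, 50.9% after median-of-ratios scaling and 49.6% after quantile normalization. Either scaling moved the median difference of all genes by 0.06 log2 units, and all 407 larger differences were called in the same direction with both.

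**Figure D1:**
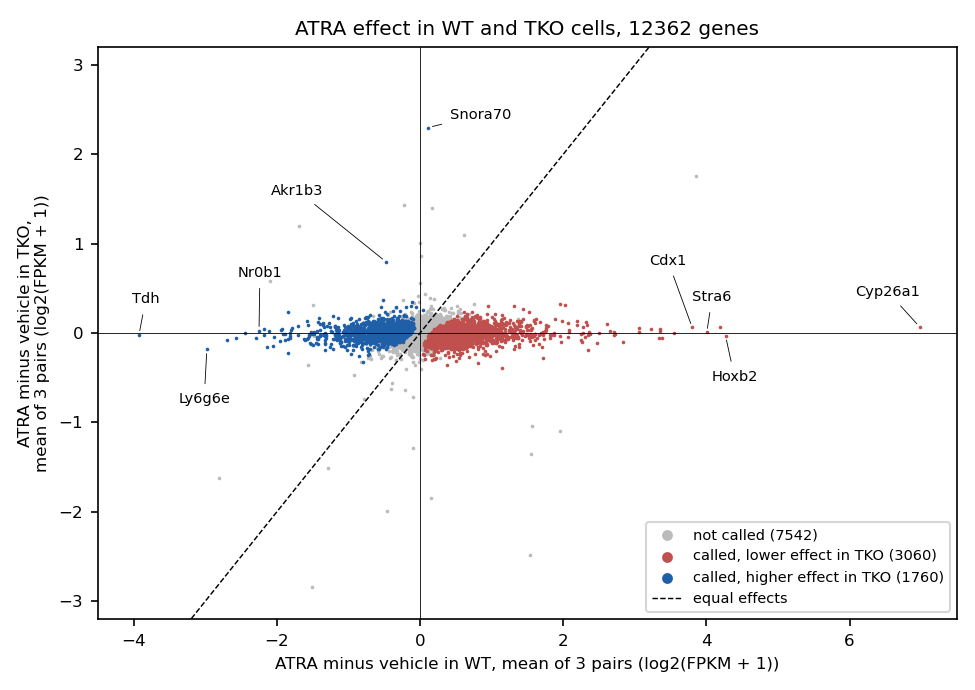
ATRA effect per gene (ATRA minus vehicle, log2(FPKM + 1), mean of 3 pairs) in WT on the horizontal and in TKO on the vertical axis, for the 12362 genes tested. Red and blue points are the 3060 and 1760 genes with a lower or higher effect in TKO, grey points are genes not called, and the dashed line marks equal effects. Called genes spread from −3.93 (Tdh) to 6.98 (Cyp26a1) along the WT axis and lie close to 0 on the TKO axis, apart from a few such as Snora70 at 2.30.

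The pairs of a genotype lay closer to each other than to those of the other genotype. The number of genes with an ATRA effect of at least 1 log2 unit in either direction was 560 in the D pair of WT, 384 in the F pair and 524 in the G pair, against 19, 15 and 17 in the TKO pairs. The 266 genes with a called difference of at least 1 unit below 0 had median effects of 1.38, 1.28 and 1.36 in the WT pairs D, F and G. The 141 genes on the other side had −1.45, −1.16 and −1.34. In the TKO pairs these medians lay between −0.02 and 0.02. Both sets were chosen by the difference over these same pairs, so the gap between the genotypes in these medians follows from that choice. The F pair of WT was the weakest in both directions. The spread between pairs was itself larger in WT, with a median SD over 3 pairs of 0.11 against 0.0721 in TKO, and it was larger in WT for 68.5% of genes.

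WT with ATRA D, a library of the D pair, stood apart in its lowest values. Of its genes at the lowest levels, 3.16% lay at the commonest ratio to WT vehicle D, as whole reads give it, against 7.91% to 28.4% in the 10 other libraries compared with WT vehicle D. Without the WT D pair 4222 genes were called, and without each of the other pairs between 3439 (without the TKO D pair) and 4808 (without the WT F pair). Summed embryonic stem cell markers were at 7602 to 8910 FPKM in WT vehicle, at 5049 to 6317 in WT with ATRA, 6437 to 6816 in TKO vehicle and 6315 to 6579 in TKO with ATRA, and 7 of these 8 genes had a higher effect in TKO. Fibroblast feeder markers summed to 10.7 to 16.6 FPKM over all groups, with 9 of 11 under 1 FPKM. Extraembryonic endoderm markers summed to 61 to 70.9 FPKM in WT vehicle, at 89.6 to 112 in WT with ATRA, 92.7 to 136 in TKO vehicle and 95.2 to 145 in TKO with ATRA. Trophoblast markers were at 2.22 to 3.39, 5.09 to 6.61, 6.54 to 25.4 and 6.31 to 26.4 FPKM in the same order, with Cdx2, Elf5, Gata3, Plac1 and Tpbpa under 1 FPKM in every group. Neural markers were at 30.8 to 45, 27.1 to 31.2, 43.8 to 51.7 and 45.2 to 55.1 FPKM. In bulk RNA a change in the number of cells of a type and a change in RNA per cell cannot be told apart. The part of such cells in the differences was not tested.

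The 3 targeted genes were read in every library of both genotypes. Rarg (GRCm38 chromosome 15, 102234938 to 102257517), the receptor gene with the highest FPKM here, was at 52.4, 35.8 and 55.8 FPKM in WT vehicle D, F and G and at 87.8, 73 and 98.7 in WT with ATRA. In TKO it was at 15.4, 17.5 and 11.8 in vehicle and at 14.5, 17.4 and 13.1 with ATRA. All TKO libraries lay below all WT libraries, and the difference of effects was −0.84 ± 0.08 (SE; limma adjusted p = 7.4e-05). Rara (chromosome 11, 98927818 to 98974942) was at 14.1, 10 and 9.15 FPKM in WT vehicle, at 20, 17.4 and 19.103 in WT with ATRA, at 7.55, 9.03 and 9.03 in TKO vehicle and at 8.38, 9.82 and 9.7 in TKO with ATRA. Its difference was −0.62 ± 0.11 (adjusted p = 0.00218 in limma). Neither passed without the letter in the fit (adjusted p = 0.108 for Rarg and 0.114 for Rara in limma). Rara and Rarg RNA thus remained readable in cells labelled as null, and values per gene do not tell which exons were read.

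Rarb (chromosome 14, 16430839 to 16819156), a receptor gene that is itself a known direct target through the DR5 repeat shown above, was at 0.341, 0.506 and 0.235 FPKM in WT vehicle and at 7.3, 7.29 and 5.13 in WT with ATRA. In TKO it was at 0.122, 0.139 and 0.134 in vehicle and at 0.0674, 0.015 and 0.0725 with ATRA. Only the WT libraries with ATRA exceeded 1 FPKM. The difference was −2.57 ± 0.11 (adjusted p = 7.77e-07 in limma). Exons of Top2b and Gm48162 overlap Rarb on the other strand, and no source used here gives the strand setting of the counting, so its low values are uncertain.

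Of 19 tested genes for retinoid receptors and their coregulators, 5 had a lower effect in TKO and 0 a higher one, a share of lower calls near that of all genes tested. The 5 include Rara, Rarb and Rarg, the genes targeted in TKO, so the share rests largely on them. The others of the 5 were Nrip1, a ligand-dependent corepressor, and the histone demethylase gene Kdm1a at −0.24. Nrip1 was at 1.62, 1.47 and 1.46 FPKM in WT vehicle, at 10.7, 8.75 and 9.57 in WT with ATRA, at 1.92, 1.48 and 1.11 in TKO vehicle and at 1.8, 1.35 and 1.4 in TKO with ATRA. WT with ATRA was the only group above 2 FPKM, and the difference was −2.06 ± 0.11 (adjusted p = 1.53e-06 in limma). The partner receptor genes Rxra and Rxrb did not pass, at −0.15 and −0.13.

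Genes that clear, store or carry retinoids held the largest difference measured. Cyp26a1 (chromosome 19, 37697798 to 37701536), which encodes the main retinoic acid hydroxylase of the early embryo, was at 0.295, 0.676 and 0.507 FPKM in WT vehicle and at 243, 122 and 218 in WT with ATRA, a ratio of means of 394. In TKO it was at 1.04, 1.69 and 1.36 in vehicle and at 1.06, 1.89 and 1.51 with ATRA. The WT pairs rose by 7.56, 6.19 and 7.18 log2 units and the TKO pairs moved by 0.02, 0.10 and 0.09. The difference was −6.91 ± 0.34 (limma adjusted p = 4.01e-05), with a 95% interval of −7.73 to −6.09. Vehicle levels were higher in TKO than in WT, in each library.

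Stra6 (chromosome 9, 58063788 to 58153996), the receptor that takes up retinol from its carrier protein, was at 0.268, 0.918 and 0.315 FPKM in WT vehicle, at 22, 21.1 and 25.1 in WT with ATRA, at 0.361, 0.968 and 0.609 in TKO vehicle and at 0.467, 0.929 and 0.542 in TKO with ATRA. Dhrs3 (chromosome 4, 144892827 to 144928209), which reduces retinaldehyde back to retinol, was at 0.47, 0.703 and 0.532, then 20.2, 12.3 and 20.7, then 0.202, 0.55 and 0.248, then 0.242, 0.334 and 0.391 FPKM in the same order. For both genes every WT library with ATRA was above 12 FPKM and every other library below 1. The differences were −4.00 ± 0.19 for Stra6 and −3.55 ± 0.23 for Dhrs3 (adjusted p = 1.75e-06 and 1.64e-05 in limma). Cyp26b1, a second retinoic acid hydroxylase gene, was between 0.0695 and 0.205 FPKM in all vehicle and TKO libraries and at 8.32, 6.26 and 20.9 in WT with ATRA. Its difference was −3.40 ± 0.40, with the widest spread of the WT pairs among these genes (3.12, 2.64 and 4.26).

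Of all 17 tested genes of retinoid metabolism and transport, 11 had a lower effect in TKO and 0 a higher one (5 and 0 without the letter in the fit), with a median difference of −0.38, where the median over all genes tested was −0.06. Over all genes tested 24.8% were lower and 14.2% higher, or 3.96% and 1.47% without the letter. These shares also stand beside the counts of target and Hox genes below. Stra6, Dhrs3 and Cyp26b1 entered the test through WT with ATRA alone. The retinoic acid binding protein genes Crabp2 and Crabp1 were at −0.98 and −0.38, and the retinol dehydrogenase gene Rdh10, which makes retinaldehyde, at −0.35. Aldh1a2, which makes retinoic acid from retinaldehyde, did not pass at −0.32. The 6 genes not called ranged from −0.32 to 0.20.

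Of 26 tested retinoic acid target genes, a list that shares members with the receptor, metabolism and Hox lists, 24 had a lower effect in TKO and 0 a higher one, with a median difference of −1.73. The effects of the 26 within TKO lay between −0.12 and 0.15. The genes that did not pass were Egr1 and Tgm2, each at −0.11. Without the letter in the fit 18 were lower and 0 higher. Several members, among them Stra6, Dhrs3, Zfp703, Cyp26b1, Hoxb1 and Rarb, reached 1 FPKM in no group but WT with ATRA, so they entered the test through the group where they were high. Because the list was also written from known targets and with earlier results of these data at hand, its count is a description. Zfp703, which encodes a zinc finger corepressor, was at 0.0687 to 0.199 FPKM in WT vehicle, at 8.33 to 13.3 in WT with ATRA and 0.177 to 0.677 in TKO, and its difference was −3.44 ± 0.21. An exon of Gm45371 overlaps it on the other strand. Genes of the list for cofactors of Hox proteins were Meis1 at −1.77 and Meis2 at −1.31.

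**Figure D2:**
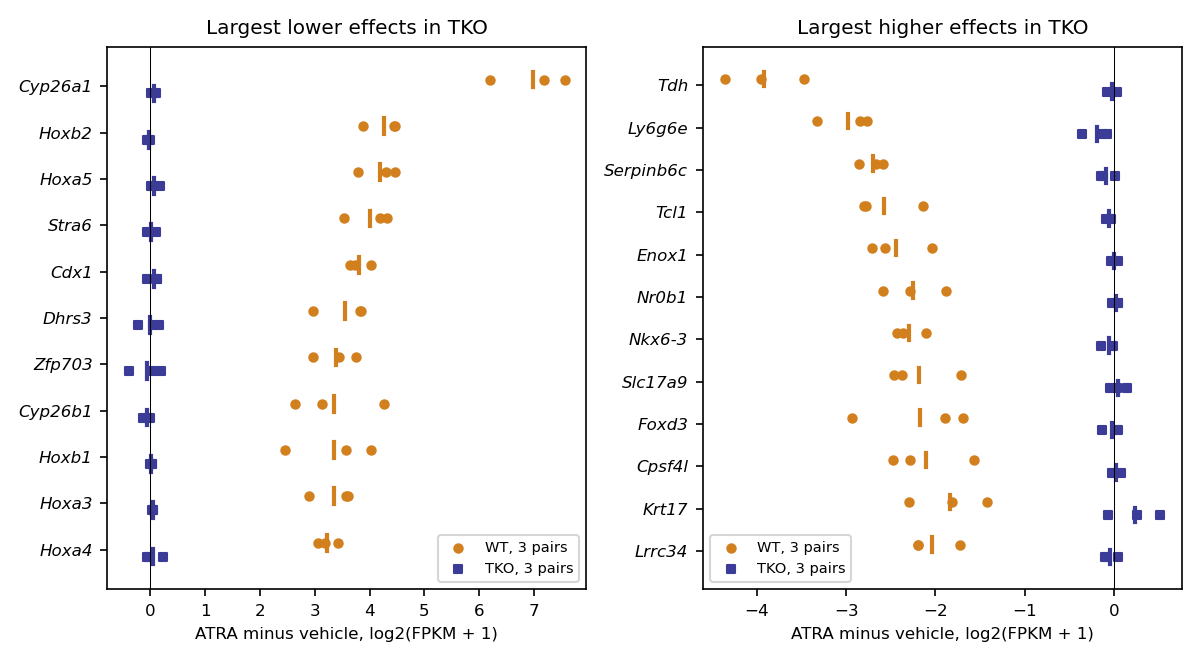
ATRA minus vehicle (log2(FPKM + 1)) in the 3 WT pairs (circles) and the 3 TKO pairs (squares) for 11 of the 12 genes with the lowest and the 12 with the highest difference of effects among called genes without overlap, leaving out predicted and small RNA genes such as Snora70 and repeated symbols. Bars mark means of 3 pairs. All WT circles lie away from 0, at 2.46 or more on the left and at −1.42 or less on the right, and TKO squares lie between −0.39 and 0.52.

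Hox genes, which give cells their position along the body axis and lie in 4 clusters, made up 5 of the 12 lowest differences. The table held 39 Hox genes and 20 of them were tested. Of these 19 had a lower effect in TKO and 0 a higher one, in both the paired fit and the fit without the letter. The other 19 did not reach 1 FPKM in 3 libraries. Since a Hox gene near 0 in 3 groups could enter only through WT with ATRA, the count of 19 describes the genes that passed that filter. The median difference was −2.33.

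In the Hoxb cluster on chromosome 11, Hoxb1 (96365752 to 96368256) was listed at 0 in all WT vehicle and all TKO vehicle libraries and at 0, 0.0193 and 0.0185 FPKM in TKO with ATRA. In WT with ATRA it was at 10.9, 4.48 and 15.2 FPKM. Its difference was −3.33 ± 0.38 (adjusted p = 0.000829 in limma). Hoxb2 (96350525 to 96354012) was at 0, 0.024 and 0 FPKM in WT vehicle, at 21.2, 14.1 and 20.8 in WT with ATRA, at 0, 0.0475 and 0.0208 in TKO vehicle and 0 in each TKO library with ATRA. The difference of −4.30 ± 0.15 (adjusted p = 4.16e-07 in limma) was the second lowest of the named genes, and an exon of Hoxb3os overlaps Hoxb2 on the other strand. The other Hoxb genes tested, Hoxb3 to Hoxb9 and Hoxb13, ranged from −3.00 (Hoxb4) to −2.21 (Hoxb9).

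In the Hoxa cluster on chromosome 6, Hoxa5 (52201754 to 52204587) was at 0.188, 0.431 and 0.157 FPKM in WT vehicle, at 25.1, 18.8 and 21.9 in WT with ATRA, at 0.0796, 0.0242 and 0.0424 in TKO vehicle and at 0.0876, 0.0519 and 0.171 in TKO with ATRA. Again WT with ATRA alone reached 1 FPKM, and the difference was −4.11 ± 0.16 (adjusted p = 5.03e-07 in limma). Hoxa3 and Hoxa4, at −3.31 and −3.18, overlap exons of antisense transcripts, so reads of the strands cannot be told apart there. Hoxa2, Hoxa7, Hoxa9 and Hoxa10 ranged from −2.07 (Hoxa10) to −1.23 (Hoxa9). In the Hoxc cluster Hoxc4 was at −0.99. Hoxc13 was the tested Hox gene that did not pass, at 0.29 (adjusted p = 0.0546 in limma), and it was called with a higher effect under median-of-ratios scaling, under quantile normalization, without the trend and robust settings and without the WT D pair.

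**Figure D3:**
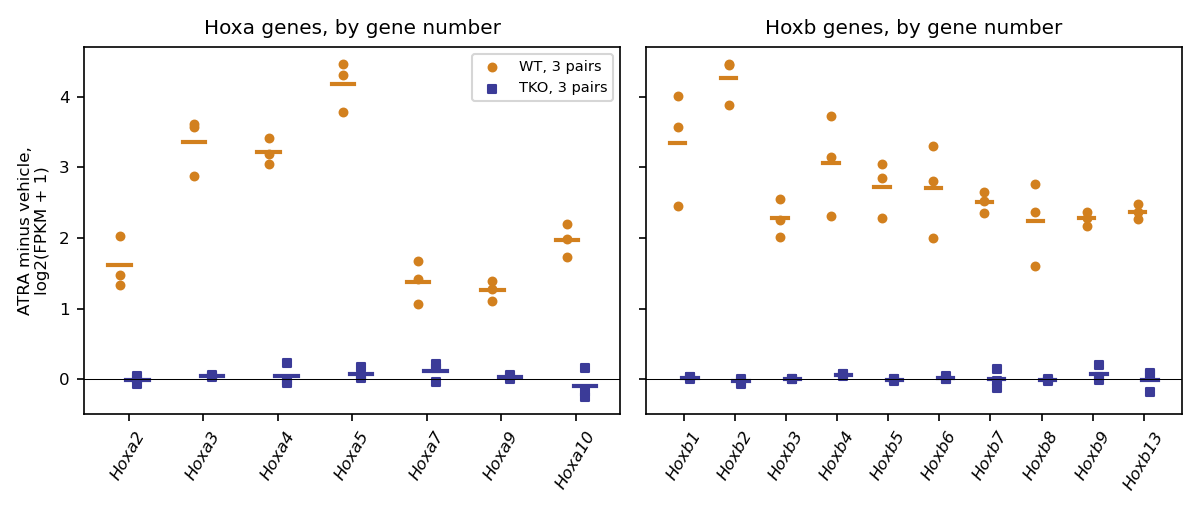
ATRA minus vehicle (log2(FPKM + 1)) for Hoxa and Hoxb genes in order of gene number, with 3 WT pairs as circles, 3 TKO pairs as squares and means as bars. WT pairs lie above 1 for every gene shown and are highest for Hoxb2 and Hoxa5, and TKO pairs lie close to 0, between −0.26 and 0.23.

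Of 28 listed homeobox genes of patterning outside the Hox clusters 14 were tested. Of these 11 had a lower and 2 a higher effect in TKO (9 and 1 without the letter in the fit), with a median of −1.06. Over all genes tested 24.8% were lower and 14.2% higher. Members such as Meis1 reached 1 FPKM only in WT with ATRA and entered through that group, so the count describes the genes that passed the filter. Cdx1 (chromosome 18, 61018862 to 61036199), a regulator of Hox genes, was at 1.9, 2.14 and 0.906 FPKM in WT vehicle and at 37.7, 38.1 and 30.1 in WT with ATRA. In TKO it was at 2.99, 3.5 and 2.28 in vehicle and at 3.36, 3.33 and 2.57 with ATRA. The WT pairs differed little from each other (3.74, 3.64 and 4.03), and the difference of effects was −3.74 ± 0.11 (adjusted p = 2.49e-07 in limma). The genes on the other side were Six4 at 0.36 and Otx2, the anterior and epiblast homeobox gene, at 1.13 ± 0.12. Otx2 was at 2.32, 3.21 and 1.43 FPKM in WT vehicle, at 0.211, 0.698 and 0.246 in WT with ATRA, at 19.2, 19.3 and 21.7 in TKO vehicle and at 17.9, 17.9 and 19.4 in TKO with ATRA. TKO libraries were thus above all WT libraries at either treatment, and Otx2 fell in each WT pair. Antisense exons of Otx2os1 overlap it.

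With predicted and small RNA genes left out, the 12 highest differences belonged to genes that fell with ATRA in WT. Tdh (chromosome 14, 63492347 to 63509092) encodes threonine dehydrogenase, the enzyme through which mouse embryonic stem cells break down threonine. It was at 131, 84.8 and 92.7 FPKM in WT vehicle and at 5.4, 6.76 and 5.07 in WT with ATRA, a mean 17.9-fold lower. In TKO it was at 320.3, 247 and 268 in vehicle and at 316, 235 and 274 with ATRA. The TKO libraries were above every WT library and did not separate by treatment, and the difference was 3.91 ± 0.22 (adjusted p = 8.39e-05 in limma). An exon of Gm17232 overlaps Tdh on the other strand. Of the 21 tested genes of threonine, glycine and serine metabolism, 8 had a higher effect in TKO and 0 a lower one (1 and 0 without the letter in the fit). Over all genes tested 14.2% were higher and 24.8% lower. Among tested genes with a mean log2(FPKM + 1) of 6 or more these shares were 25.4% and 12.5%. The median of the list was 0.06, and its members ranged from −0.31 to 3.91. The next after Tdh was Gldc, a subunit of the glycine cleavage system, at 0.91 ± 0.08. Gldc was at 56.8 to 75.1 FPKM in WT vehicle, at 30.7 to 35.1 in WT with ATRA and 74.1 to 125 in TKO. Gcat, which acts after threonine dehydrogenase, was at 0.44, and Shmt2, Phgdh and Mthfd2 did not pass, between −0.06 and 0.03.

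Of 39 tested pluripotency genes 31 had a higher effect in TKO and 3 a lower one, with a median of 0.69. Without the letter in the fit 14 were higher and 0 lower. Over all genes tested 14.2% were higher and 24.8% lower, or 1.47% and 3.96% without the letter. The nuclear receptor gene Nr0b1 (chromosome X, 86191764 to 86195947) was at 101, 136 and 117 FPKM in WT vehicle, at 20.1, 36.1 and 18.7 in WT with ATRA, at 110.5, 103 and 124 in TKO vehicle and at 114, 101 and 129 in TKO with ATRA. WT with ATRA stood below the other groups, which overlapped, and the difference was 2.28 ± 0.16 (adjusted p = 6.88e-05 in limma). Zfp42, a marker of the naive state, was at 545, 591 and 498 FPKM in WT vehicle, at 127, 197 and 135 in WT with ATRA, at 616, 467 and 568 in TKO vehicle and at 607, 446 and 526 in TKO with ATRA. Its difference was 1.78 ± 0.11 (adjusted p = 1.59e-05 in limma). Tcl1, which encodes an AKT coactivator, was at 51.8 to 78.1 FPKM in WT vehicle, at 6.56 to 16.1 in WT with ATRA and 36.7 to 56.9 in TKO, with a difference of 2.52 ± 0.17.

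The core factors differed by less than Nr0b1, Zfp42 and Tcl1. Those genes were named for the size or the adjusted p of this same difference, so the gap may follow from that choice. Pou5f1 was at 1326, 1347 and 1380.2 FPKM in WT vehicle, at 808, 889 and 788 in WT with ATRA, at 1060.0, 1262 and 933 in TKO vehicle and at 1037, 1235 and 934 in TKO with ATRA. WT with ATRA was again the lowest group, and the difference was 0.69 ± 0.06 (adjusted p = 2.26e-05 in limma). Sox2 was at 0.53 ± 0.06 and Nanog at 0.73 ± 0.11, and neither passed without the letter in the fit (adjusted p = 0.123 and 0.33 in limma). Nanog was at 436, 683 and 387 FPKM in WT vehicle and at 202, 429 and 235 in WT with ATRA, groups that overlap unless the letters pair them. Klf2 and Esrrb, both naive factors, were at 1.98 ± 0.47 and 1.08 ± 0.26, with standard errors well above the median of 0.0891. Their WT pairs spread from −3.05 to −1.56 and from −1.58 to −0.58, with the G pair lowest in both. The growth factor gene Fgf4 was at 1.50 ± 0.12 and the cell cycle Myb gene Mybl2 at 1.39 ± 0.07. The members with a lower effect in TKO were Gbx2 at −0.97, Tcf7l1, a repressor of the naive network, at −0.44, and Dppa2 at −0.35.

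Other genes of this ranking, which leaves out predicted and small RNA genes, had no place in the pluripotency list. Enox1, an NADH oxidase family gene, was at 10.1 to 11.6 FPKM in WT vehicle, at 0.916 to 1.7 in WT with ATRA and 12.7 to 14.6 in TKO, with a difference of 2.44 ± 0.15. Serpinb6c, a serine protease inhibitor gene, was at 13.7 to 26.6, 1.46 to 3.37 and 7.79 to 13.7 FPKM in the same order, and its difference was 2.62 ± 0.09. Foxd3, a forkhead factor of the epiblast and neural crest, had a difference of 2.16 ± 0.32. It was at 4, 7.54 and 8.54 FPKM in WT vehicle, at 0.547, 1.3 and 0.244 in WT with ATRA, at 16, 31.2 and 13 in TKO vehicle and at 16.5, 28.3 and 13.4 in TKO with ATRA. Ly6g6e, Nkx6-3, Slc17a9, Cpsf4l, Krt17 and Lrrc34 ranged from 2.79 (Ly6g6e) to 1.996 (Lrrc34). Ly6g6e and Lrrc34 overlap neighbouring genes on the other strand (Ly6g6d and Lrriq4), as Enox1 does Gm6994.

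**Figure D4:**
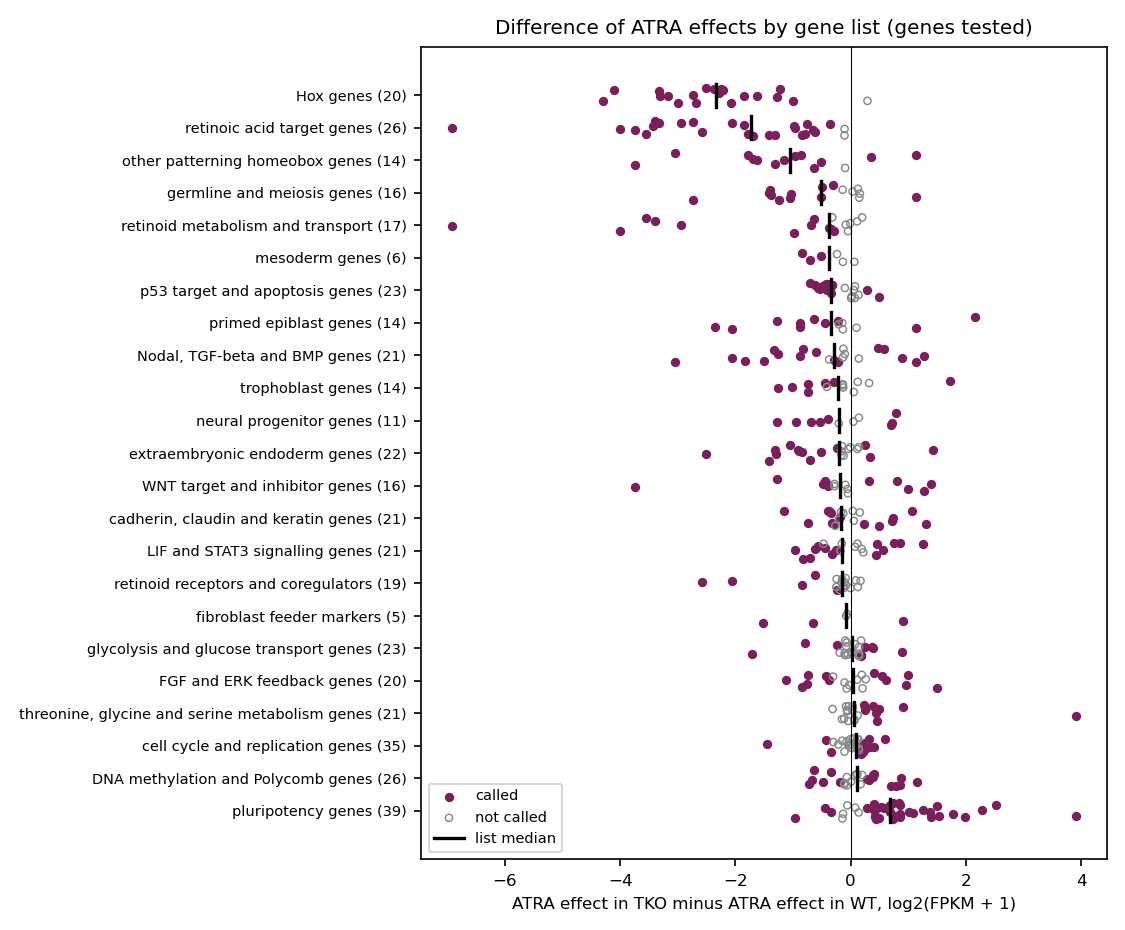
Difference of ATRA effects (TKO minus WT, log2(FPKM + 1)) for each tested member of 23 gene lists, ordered by list median, with the number of tested members in brackets. Filled points are called genes, open points are not, and bars mark list medians, which run from −2.33 for Hox genes to 0.69 for pluripotency genes. Lists share members.

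Lineage lists held both directions. Their counts, and those of the signalling and metabolic lists that follow, stand against 24.8% of all genes lower and 14.2% higher, or 3.96% and 1.47% without the letter in the fit. Of 14 tested primed epiblast genes 8 had a lower and 2 a higher effect in TKO (median −0.33). Sox4 was lower, at −2.36 ± 0.14, from 1.29 to 2.03 FPKM in WT vehicle to 9.27 to 13.7 in WT with ATRA, against 6.11 to 9.93 in TKO. Lefty1, a Nodal antagonist, was lower at −2.06 ± 0.28 and did not pass without the letter (adjusted p = 0.0739 in limma). Of 22 tested extraembryonic endoderm genes 11 were lower and 3 higher (4 and 0 without the letter; median −0.20). Gata6, the primitive endoderm regulator, was at 1.02, 1.52 and 0.701 FPKM in WT vehicle, at 11.3, 8.56 and 15.8 in WT with ATRA, at 2.99, 4.04 and 2.65 in TKO vehicle and at 3.2, 4.9 and 2.65 in TKO with ATRA. TKO vehicle lay above WT vehicle for Gata6 and below WT with ATRA, and the difference was −2.51 ± 0.33 (adjusted p = 0.00144 in limma). Serpinh1, a collagen chaperone gene, was at −1.29 ± 0.09, Foxa1 at −1.42 ± 0.12 and Sox7 at −1.31. The lipid carrier gene Apoe moved the other way, at 1.43 ± 0.11. Foxa1 reached 1 FPKM only in WT with ATRA, at 2.13 to 3.21 FPKM, and entered the test through that group. The counts of the lists here and below therefore describe the genes that passed the filter on low values.

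Of 14 tested trophoblast genes 6 were lower and 1 higher (2 and 0 without the letter in the fit), of 11 neural progenitor genes 5 and 3 (2 and 0), and of 6 mesoderm genes 3 and 0 (0 and 0). The higher trophoblast gene was Gata2 at 1.72 ± 0.19, which was at 5.37 to 9.24 FPKM in WT vehicle, at 1.32 to 2 in WT with ATRA and 0.917 to 4.72 in TKO. Among neural genes the SoxB1 genes Sox3 and Sox1 were at −1.27 and −0.70, while Vim and Tubb3, cytoskeletal genes, were at 0.71 and 0.78. Pdgfrb was at −1.52 and Thy1 at 0.91 among the 5 tested fibroblast genes, of which 2 were lower and 1 higher.

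Of 16 tested germline and meiosis genes 10 had a lower effect in TKO and 1 a higher one, with a median of −0.51 (3 and 0 without the letter in the fit). Stra8 (chromosome 6, 34920163 to 34939344), a retinoic acid induced gene needed for meiotic entry, was at 103, 166 and 89.5 FPKM in WT vehicle, at 727, 845 and 707 in WT with ATRA, at 16.3, 10.1 and 14.2 in TKO vehicle and at 15.3, 10.6 and 13.7 in TKO with ATRA. Both TKO groups were lowest and overlapped, WT vehicle lay between, and WT with ATRA was highest. The difference was −2.73 ± 0.15 (adjusted p = 1.43e-05 in limma). Rec8, a meiotic cohesin gene, was at 5.78 to 8.66 FPKM in WT vehicle, at 16.5 to 24.5 in WT with ATRA and 5.04 to 7.86 in TKO, with a difference of −1.38 ± 0.08. The RNA binding protein gene Dazl was at −1.39 ± 0.08 and did not pass without the letter (adjusted p = 0.159 in limma). Its WT vehicle values of 2.82, 7.07 and 2.88 FPKM and WT values with ATRA of 9.37, 21.1 and 8.57 had F highest in both groups, and the paired effects were 1.44, 1.46 and 1.30. The gene with a higher effect was Prdm1, at 1.14.

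Signalling lists were divided. Of 21 tested genes of Nodal, TGF-beta and BMP signalling 11 were lower and 5 higher in TKO (5 and 0 without the letter in the fit). The SMAD corepressor gene Skil was at 12.7 to 14.6 FPKM in WT vehicle, at 39.6 to 60.8 in WT with ATRA and 15.1 to 18.9 in TKO, with a difference of −1.84 ± 0.10, and its relative Ski was at −1.33 ± 0.11. The Id genes, which antagonise bHLH factors, did not move together: Id3, Id2 and Id1 were at −1.50, −1.25 and −0.61, and Id4 was at 1.27. Of 20 genes of FGF signalling and ERK feedback 6 were lower and 6 higher (2 and 2 without the letter in the fit). The receptor genes Fgfr2, Fgfr1 and Fgfr3 were at −1.12, −0.75 and −0.37, while the ligand genes Fgf4 and Fgf17 were at 1.50 and 0.97. Phosphatase genes of the pathway lay on both sides, with Dusp5 and Dusp6 at −0.85 and −0.76 and Dusp4 at 1.00.

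Of 21 genes of LIF and STAT3 signalling 8 were lower and 6 higher (0 and 1 without the letter in the fit). Socs2, a feedback inhibitor of cytokine signalling, was at 17.6 to 24.7 FPKM in WT vehicle, at 7.67 to 10.3 in WT with ATRA and 26 to 33.4 in TKO, and its difference was 1.26 ± 0.19. Klf4 and the receptor gene Lifr were at 0.86 and 0.56, and the kinase genes Pim1 and Jak2 at −0.82 and −0.71. Stat3 itself did not pass, at 0.07. Of 16 WNT target and inhibitor genes 6 were lower and 5 higher (2 and 2 without the letter in the fit), among them the secreted inhibitor genes Sfrp2 at −1.28 and Sfrp1 and Notum at 1.00 and 1.40. Axin2, a feedback target of WNT signalling, did not pass at −0.28.

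Of 35 tested cell cycle and replication genes 12 were higher and 3 lower (0 and 0 without the letter in the fit), with a median of 0.09, where 14.2% of all genes were higher and 24.8% lower. Among all tested genes with a mean log2(FPKM + 1) of 6 or more these shares were 25.4% and 12.5%. Members such as Mcm5, at 118 to 169 FPKM over all libraries, lie in that class, so the count is no sign of a trait of the list. The replicative helicase genes Mcm3, Mcm5 and Mcm7, the clamp gene Pcna and the kinase gene Cdk2 were between 0.25 and 0.40. The cyclin gene Ccnd2 went the other way at −1.45 ± 0.15, from 2.05, 1.88 and 5.82 FPKM in WT vehicle to 9.21, 9.23 and 14.8 in WT with ATRA. Of 23 p53 target and apoptosis genes 14 were lower and 2 higher (2 and 0 without the letter in the fit), led by Bcl2l11, a pro-apoptotic BCL2 family gene, at −0.70, and Mcl1, an anti-apoptotic one, at −0.63. Trp53 itself was at 0.29 and Cdkn1a at 0.02, not called.

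Of 23 glycolysis and glucose transport genes 6 were higher and 3 lower (0 and 0 without the letter in the fit). Members such as Gapdh, at 3682 to 4681 FPKM over all libraries, lie in the class with a mean of 6 or more. In that class 25.4% of all tested genes were higher and 12.5% lower, so this count too is no sign of a trait of the list. The glucose transporter gene Slc2a1 had the largest difference of the list. It was at 151, 144 and 284 FPKM in WT vehicle, at 656, 481 and 987 in WT with ATRA, at 135, 274 and 119 in TKO vehicle and at 149, 280.3 and 148 in TKO with ATRA. The WT groups do not overlap and the TKO groups do, and the difference was −1.72 ± 0.10 (adjusted p = 9.45e-06 in limma, or 0.108 without the letter). Of 26 DNA methylation and Polycomb genes 10 were higher and 6 lower (3 and 1 without the letter in the fit), the lower ones at a share close to the 24.8% of all genes. The methyltransferase cofactor gene Dnmt3l was at 1.15 ± 0.13, the demethylation enzyme gene Tet1 at 0.85 ± 0.08 and the Polycomb subunit gene Eed at 0.79 ± 0.06, while Bmi1, of the other Polycomb complex, was at −0.73 ± 0.09 and the de novo methyltransferase gene Dnmt3a at −0.64. Of 21 cadherin, claudin and keratin genes 8 were lower and 6 higher (1 and 2 without the letter in the fit). The P-cadherin gene Cdh3 was at 1.06 and the E-cadherin gene Cdh1 at −0.39.

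A larger effect in TKO than in WT was rare. Of the 407 called differences of at least 1 log2 unit, 2 had a TKO effect of at least 0.5, in Snora70 and Akr1b3. Akr1b3 (chromosome 6, 34302434 to 34317478), an aldose reductase gene, was at 12.5, 14.6 and 12.7 FPKM in TKO vehicle and at 24.5, 24.8 and 22.1 in TKO with ATRA, against 33.3, 23.6 and 19.2 in WT vehicle and at 14.1, 19.5 and 19.4 in WT with ATRA. The TKO groups do not overlap and the WT groups do. Its TKO pairs moved by 0.91, 0.73 and 0.76 and its WT pairs by −1.19, −0.26 and 0.02, and the difference was 1.28 ± 0.33 (adjusted p = 0.0311 in limma). Leaving out the WT F pair or any TKO pair brought the adjusted p to between 0.0617 and 0.108. Snora70 (chromosome X, 74272484 to 74272620), a small nucleolar RNA gene inside the ribosomal protein gene Rpl10, was at 7.58, 6.77 and 6.08 FPKM in TKO vehicle and at 33, 36.8 and 42.8 in TKO with ATRA. In WT it was at 7.62, 20.4 and 51.9 in vehicle and at 17.8, 16.2 and 37.5 with ATRA. The difference was 2.18 ± 0.52 (adjusted p = 0.0324 in limma) and lost its call without any 1 of 5 of the 6 pairs. Its RNA is far shorter than a usual transcript and shares its place with Rpl10, so its FPKM is uncertain.

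Shares of calls varied with mean expression level. Among genes with a mean under 1 on the log2(FPKM + 1) scale, 40.2% had a lower and 6.99% a higher effect in TKO. Among genes with a mean of 6 or more these shares were 12.5% and 25.4%, and they changed in order between. With median-of-ratios scaling they were 38.4% and 7.97% in the lowest class and 6.93% and 37.2% in the highest. With quantile normalization they were 29.6% and 11.1%, and 15.2% and 18.8%. A gene with a low mean can pass the filter through WT with ATRA alone, as Hoxb1 and Rarb did, so the filter can favour lower calls there. The share of all calls with a higher effect was 30.9% without a filter and 42.3% with a filter of 5 FPKM, against 36.5%. The part of the filter in the pattern by level was not tested. By chromosome the median difference lay between −0.0996 on chromosome 6 and −0.00323 on chromosome 17, over the autosomes and X. Chromosomes 6 and 11, where vehicle TKO and WT differed by a median of −0.24 and 0.21, had medians of −0.0996 and −0.0408 for the difference of effects. On Y, with only 4 tested genes, vehicle TKO and WT differed by a median of 2.21. The median difference of effects there was −0.02, and 0% were called.

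**Figure D5:**
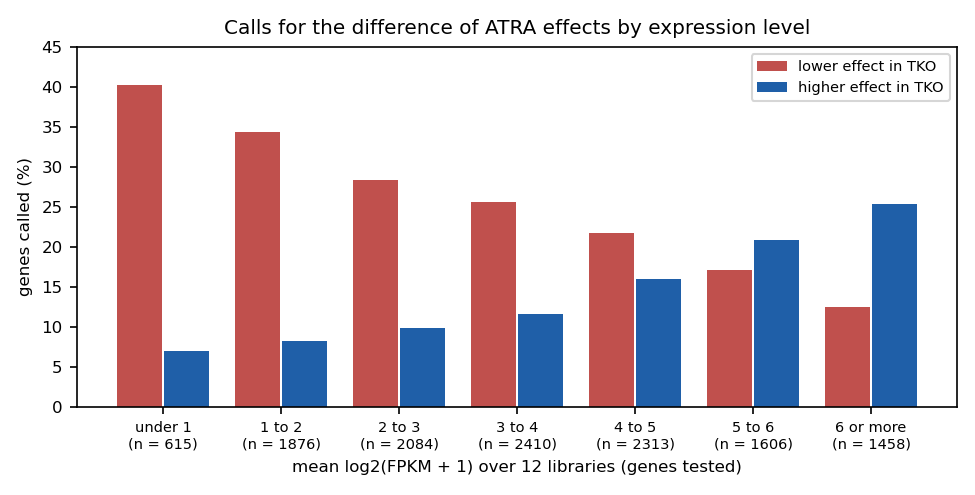
Share of tested genes called with a lower (red) or higher (blue) ATRA effect in TKO, in classes of mean log2(FPKM + 1) over 12 libraries, with the number of genes per class under the axis. The share of lower calls falls from 40.2% to 12.5% from the lowest to the highest class, and the share of higher calls rises from 6.99% to 25.4%. Genes of the lowest class can pass the filter on low values through WT with ATRA alone.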

How the data were processed

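The authors deposited 1 table of FPKM per gene, a unit inferred from its values. The submitters' processing notes list STAR, Cufflinks and GRCm38 with no version, and per the labels' protocols libraries were TruSeq RNA, read single-end at 51 bp. Read depth and strand setting are not given, so no counting interval was possible. 641 rows carried a repeated symbol. Columns name genotype, treatment and letter but not the replicate numbers of the titles, so columns were assigned to groups.

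limma 3.58.1 in R 4.3.3 was fitted to log2(FPKM + 1) of all 12 libraries with the letter nested in genotype (4 residual degrees of freedom, or 8 without the letter), with trend and robust moderation and Benjamini-Hochberg adjustment over all 12362 genes. Fold changes on this scale are understated for low genes. Same-letter libraries of a genotype deviated together from their group means (r = 0.376 to 0.864), while those of different genotypes ranged from −0.515 to 0.287. The labels state no such pairing. Lists, rule and members were chosen with earlier results of these data known. The rule named the receptors, the 12 lowest and 12 highest called differences without overlap (leaving out predicted and small RNA genes, repeated symbols and genes under 1 FPKM in every group mean), the 6 largest effects in TKO that exceed those in WT, and up to 4 members per list; other members are named from the fixed lists. A few of the genes so named are not reported here. Coordinates are GENCODE vM21 on GRCm38, matched by symbol. Of 113 genes matched, 31 had an exon overlapped on the other strand.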

Additional observations from a re-analysis of the deposited data

Results flagged for a closer look

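The effect of ATRA differed between the genotypes by a test of the difference itself for 3060 genes with a lower and 1760 genes with a higher effect in TKO (limma, adjusted over all genes tested), which is the comparison of the report. Among these, 38 genes had an effect farther from 0 in TKO than in WT. The 6 with the largest TKO effects had differences of 2.182 (Snora70), 1.277 (Akr1b3), 0.4909 (Abca1), 0.4549 (Phf11a), 0.4338 (Abcg1) and −0.4673 (Hfm1).

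Phf11a, a gene of the PHD finger family, was at 1.25, 0.799 and 0.945 FPKM in TKO vehicle and at 1.96, 1.16 and 1.54 in TKO with ATRA, and its call (limma adjusted p = 0.00723) was kept without each pair in turn and lost without the letter in the fit (adjusted p = 0.379 in limma). Hfm1, a meiotic helicase gene, lost its call in 5 of 6 fits without a pair and with a pseudocount of 0.1, no filter, either other scaling or no trend and robust settings, and its WT and TKO pairs overlapped. None of these 6 genes passed the threshold for the ATRA effect within TKO in the limma fit of all libraries.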

How the results depend on the processing

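No named gene whose difference was called changed its sign under any alternative run, but the balance of calls turned with scaling: 2380 genes were lower and 2465 higher with median-of-ratios scaling, and the median difference of all genes went from −0.06 to 0.00387, or to 0.00451 with quantile normalization. Counts moved mainly with the pairing. Without the letter, the fit without a replicate block called 671 genes, 489 lower and 182 higher, against 4820, 3060 and 1760. Without the letter and with median-of-ratios scaling, an alternative chosen after seeing the data, these were 629, 409 and 220. The pluripotency genes with a higher effect numbered 14 and 16 in these fits, against 31. Differences of at least 1 log2 unit were 557 lower and 271 higher with a pseudocount of 0.1, 146 lower with a filter of 5 FPKM and 91 higher without the block, against 266 and 141. Hox genes with a lower effect numbered 29 without a filter and 8 with the stricter one, against 19, as fewer or more low genes were tested. Leaving out a pair gave 3439 to 4808 calls, of which the 407 larger differences kept 398 to 405. Within TKO 0 genes were called in any fit but that without the WT D pair, where 2 were. Of 104 named genes 43 lost their call without the block, and 1 to 5 did without a pair. With the stricter filter 86 of the 104 were tested. With 3 libraries a group and unknown read depth, differences of genes near 0 FPKM and differences under about 0.2 log2 units, the median half-width of the interval, are the least certain.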

Other observations

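Abca1 and Abcg1, cholesterol efflux genes known as targets of the liver X receptors, were among the 6 genes above, and other lipid genes known as targets of these receptors were looked at after their values were seen. Abca1 rose with ATRA by 0.29, 0.14 and 0.45 log2 units in the TKO pairs D, F and G and moved by −0.23, 0.03 and −0.39 in the WT pairs. Abcg1 was at 0.27, 0.06 and 0.58 in TKO and 0.03, −0.21 and −0.21 in WT. Their differences of effects were 0.49 ± 0.12 and 0.43 ± 0.14 (limma adjusted p = 0.0105 and 0.0299), and neither passed without the letter in the fit.

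The lipid synthesis regulator gene Srebf1 was at 0.21, 0.07 and 0.37 in the TKO pairs, the desaturase genes Scd1 at 0.19, 0.01 and 0.42 and Scd2 at 0.29, 0.11 and 0.52, and the fatty acid synthase gene Fasn at 0.20, 0.00 and 0.31. In WT these 4 genes rose more, so their differences lay below 0, at −0.43, −0.94, −1.01 and −0.62, the last not called. Of 12 genes chosen in this way 7 were higher with ATRA in all 3 TKO pairs, against 1726 of 12362 genes tested (14%). Lpcat3, also among the 7, rose by only 0.07, 0.0068 and 0.0045. Apoe fell in all 3 TKO pairs (−0.02, −0.24 and −0.07). Mylip, Pltp and the receptor genes Nr1h2 and Nr1h3, also among the 12, had TKO pairs on both sides of 0. The TKO effect passed the threshold for none of the 12 genes, and since they were picked for their values this is no test. Among the TKO pairs of Abca1, Abcg1, Srebf1, Scd1, Scd2 and Fasn, the G pair was highest and the F pair lowest for each gene. This order did not hold in WT, where Abca1 had its F pair highest and its G pair lowest.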
